A study of Mus musculus with 28 samples.

Results

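Regulatory T (Treg) cells sorted from orthotopic CT2A glioblastoma (GBM) of mice treated with αPD1 + αGITR were compared with Treg cells from the same tumor model after IgG2a. The comparison took 12 libraries of 28 in the series, chosen by their labels: 7 from treated tumors, labelled tumor_70_a, tumor_70_b, tumor_72_a, tumor_73_a, tumor_73_b, tumor_74_a and tumor_80_a, and 5 from tumors of mice given the isotype control, labelled tumor_76_a, tumor_77_a, tumor_78_a, tumor_79_a and tumor_369_a. Values for the IgG2a libraries are given below in that order. CT2A is a mouse glioma line, here carrying GFP and a luciferase reporter and grown in the forebrain of C57BL/6 mice, so that every animal of both groups bore a tumor. Treatment began once tumors had grown to about 2 mm3 and consisted of 4 doses of 250 µg per mouse, 3 days apart, of RMP1-14 (αPD1) with DTA-1 (αGITR) or of IgG2a, and tumors were taken 2 days after the last dose. The design text states that every tumor sample came from its own mouse, and the age of the mice was not given. Cells were sorted as TCR+ CD8- CD4+ CD25hi CD127lo, and no library of either antibody alone was analysed here, so their parts cannot be told apart.

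Treg cells are CD4 T cells that depend on the transcription factor Foxp3 and on IL-2 taken up through CD25, and they restrain other T cells through inhibitory receptors, cytokines and the conversion of ATP to adenosine. GITR, the product of Tnfrsf18, is a TNF receptor family member that Treg cells carry at high level, and its ligation signals through TRAF adaptors to NF-kB. PD1, the product of Pdcd1, recruits phosphatases that dampen antigen receptor and CD28 signals. The genes of the Th1 program and the checkpoint receptors of these libraries are left aside here, and the other pathways of the cells are described.

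Levels are TPM, a share of all transcripts in a library scaled by transcript length, and depth is unknown for this table. In bulk RNA, fewer cells of a type and less RNA per cell cannot be told apart. Foxp3 was present in every library, at 161, 184, 239.9, 116 and 180.1 TPM after IgG2a and 165 to 440.4 TPM (median 301) after treatment. Its log2 fold change was 0.79, under the 2-fold limit used below, and 0.09 after rescaling by trimmed means. Among the other sort markers, Il2ra (CD25) stood at 90.1, 119.95, 159, 84.2 and 410.3 TPM after IgG2a and 128 to 224 TPM (median 157) after treatment, and all 12 T cell markers of the list exceeded 1 TPM in every library. Il7r (CD127) reached 277 TPM in tumor_369_a against 10.6 to 37.4 TPM in the other IgG2a libraries and 3.95 to 38.4 TPM (median 18.4) after treatment. Cd8a stayed at 0.86 to 6.15 TPM after IgG2a and at 0.20 to 2.67 TPM after treatment, too low for the test.

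A few libraries stood apart. IgG2a tumor_369_a held 7702 features above 1 TPM, against 11365 to 16683 in the other 11, and its trimmed-mean scaling factor was 0.234 against 0.796 to 1.533. IgG2a tumor_79_a carried a summed 15127 TPM of 20 macrophage and microglia markers, all 20 of them above 1 TPM, against 184 to 503 TPM in the other IgG2a libraries and 122 to 6179 TPM after treatment, where tumor_73_a was highest. Apoe, C1qb and Tyrobp, defining genes of those cells, stood at 9304, 1428 and 561.0 TPM in tumor_79_a. No tested gene of this list was called. The part of these libraries in the results was not tested beyond the values given without them.

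Of 53801 features, 7848 had a mean above 10 TPM in either group and were tested with limma on log2(TPM + 1), so fold changes understate the change of low genes. No gene reached an adjusted p of 0.05 (Benjamini-Hochberg over all 7848, lowest adjusted p = 0.0947), while 1749 had an unadjusted p under 0.05. The same count at an adjusted p of 0.05 was 1 in an ordinary linear model, 263 with limma library weights and 79 with the number of detected genes as a covariate. It was 103 without treated tumor_73_b, 21 without IgG2a tumor_79_a, and 0 or 1 when any other library was left out. Below, a gene is said to be called when its unadjusted p was under 0.05 and its change exceeded 2-fold. By this rule 1700 genes (21.7% of those tested) were called, 1318 higher (16.8%) and 382 lower (4.87%) after treatment, and every adjusted p among them was 0.224 or less. The groups did not overlap at all, every treated library lying above or below every IgG2a library, for 139 genes that were higher (1.77%) and 33 that were lower (0.42%). An exact two-sided permutation test over the 12 libraries cannot give a p below 0.00126.

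The median gene itself had a log2 fold change of 0.62, which fell to 0.05 after trimmed-mean (TMM-type) scaling and to 0.36 without tumor_369_a. The excess of higher calls followed the scaling: 77.5% of called genes were higher in TPM and 43.9% after TMM-type scaling, where 479 were higher and 611 lower. Of the 1318 genes called higher, 479 (36.3%) were also called higher after TMM-type scaling, 672 (51%) without tumor_369_a and 432 (32.8%) without tumor_369_a and tumor_79_a. Of the 382 called lower, 380 (99.5%), 264 (69.1%) and 258 (67.5%) were called lower again. Changes are therefore read against the median of all genes. After TMM-type scaling 6.1% and without tumor_369_a 10.9% of all genes were called higher, the shares against which list counts in those settings stand.

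The direction of change differed by gene type. Protein coding genes made up most of the higher calls, 1243 of 6661 tested, with 104 called lower (1.56%) and a median log2 fold change of 0.73. Long non-coding RNAs, together with TEC loci, gene models that await experimental proof, had 133 of 463 called lower (28.7%), 20 called higher and a median of -1.09. Pseudogenes had 104 of 405 called lower (25.7%), 28 higher and a median of -0.89. Immune receptor segments, the V, D, J and C pieces of antigen receptor genes, had 13 of 68 called higher (19.1%, near the 18.7% of protein coding genes), 0 called lower and a median of 1.07. Counted jointly, long non-coding RNAs and pseudogenes were called lower for 237 of 868 (27.3%). That share was 38.8% against 3.29% of protein coding genes after TMM-type scaling, 26.8% against 1.42% without tumor_369_a and 29.1% against 1.22% without tumor_369_a and tumor_79_a. With no filter on low values it was 2.41% of 18051 against 1.35% of 20637, and with a mean above 10 TPM in both groups 32.6% of 423 against 0.862% of 4643.

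Lower calls were not limited to features seen in few libraries. Among those above 1 TPM in all 12 libraries, 119 of 282 long non-coding RNAs and TEC loci (42.2%) and 86 of 185 pseudogenes (46.5%) were called lower, against 74 of 3029 protein coding genes (2.44%). Long non-coding RNAs and TEC loci took 21.8%, 20.3%, 22.8%, 7.91% and 24.3% of all TPM in the IgG2a libraries and 4.98% to 16.4% in the treated libraries, where tumor_73_b was highest. The IgG2a library tumor_79_a, rich in macrophage markers, thus sat among the treated libraries, and the treated library tumor_73_b came nearest to the IgG2a group. Most of the share in the other IgG2a libraries and in tumor_73_b was a single feature, Gm26870, at 154426 to 184254 and 117007 TPM. The difference in share thus rested largely on that feature and does not by itself show a shift of the whole class. The pseudogene share of TPM, at 2.66% to 5.78% after IgG2a and 1.99% to 3.70% after treatment, overlapped widely between groups.

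**Figure D1:**
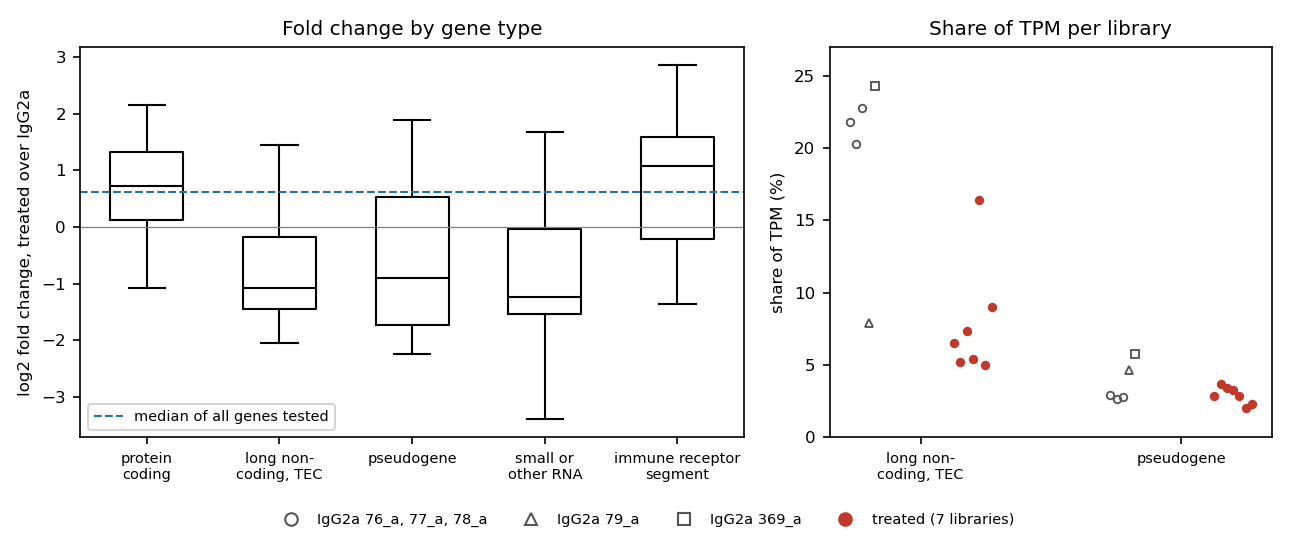
Left, log2 fold change of treated over IgG2a libraries by gene type for the 7848 genes tested (box, quartiles; line, median; whiskers, 5th to 95th percentile; dashed line, median of all genes tested, 0.62). Right, share of all TPM (%) taken by long non-coding RNAs with TEC loci and by pseudogenes in each library. For the former, 4 IgG2a libraries lie at 20.3% to 24.3%, with tumor_79_a at 7.91% and the treated library tumor_73_b at 16.4%. Most of the share in those 4 libraries and in tumor_73_b was the feature Gm26870.

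The most abundant features of this kind are named here after their values were seen. Gm26870, which the annotation gives as a long intergenic RNA at chr9:3000282-3038313 (GRCm38, GENCODE M21, as for all positions below), stood at 178765, 154426, 184254, 29428 and 171571 TPM after IgG2a. The treated libraries gave 13421 to 117007 TPM (median 22449), with tumor_73_b at 117007 TPM and tumor_80_a at 46802 TPM. The other 4 IgG2a libraries thus lay above every treated library while tumor_79_a lay inside the treated range, and the log2 fold change was -2.07 ± 0.48 (SE, n = 7 and 5, limma adjusted p = 0.0977). Gm10800 and Gm10801, neighbouring predicted genes at chr2:98666547-98667301 and chr2:98662237-98664083 that the annotation gives as protein coding, followed the same libraries, with log2 fold changes of -1.98 and -1.89. Whether the reads counted for Gm26870, Gm10800 and Gm10801 came from the annotated transcripts was not tested. Lower non-coding features included Gm48765, an antisense RNA on chromosome 13 (-2.40), the pseudogene Gm38356 on chromosome 3 (-2.33) and Gm26905, a long intergenic RNA on chromosome 8 (-2.00). Reads from an antisense gene and its partner cannot be told apart where the protocol does not mark strand. The nuclear ribosomal RNA feature CT010467.1 moved the other way without being called, from a mean of 251310 TPM after IgG2a to 392300 TPM after treatment.

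Genes of sensory receptors passed the filter mostly through the IgG2a group, where they were higher, so the share called lower is no support for a change of the family. Olfactory receptor genes, a large family of single-exon G protein-coupled receptors best known from the nose, were picked as a family after their values were seen: 28 of 45 tested were called lower (62.2%, where 4.87% of all features were), 0 were called higher, the median log2 fold change was -1.61, and for 5 the groups did not overlap. Vomeronasal receptor genes gave 5 called lower of 10 and 0 higher. With a mean above 10 TPM in both groups 8 olfactory receptor genes were tested and 8 called lower, without tumor_369_a 21 and 17, and with no filter 1264 and 66, with a median of -0.10. Features named Gm and a number, the predicted genes of mouse annotation, were called lower for 260 of 848 (30.7%, beside the same 4.87%) and higher for 34, and for 159 and 18 of the 390 with a mean above 10 TPM in both groups. These families hold near-identical copies, so the estimate for a single member is uncertain where reads were shared among them.

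Of the 28 genes called lower without overlap, 12 are protein coding, all of them named here, and 15 are non-coding RNAs or pseudogenes, which the naming rule left out. The protein coding genes included 4 olfactory receptor genes, Olfr1328, Olfr1260, Olfr107 and Olfr90. Olfr107 gave 8.39, 8.35, 12.7, 8.27 and 29.1 TPM after IgG2a and 1.12 to 7.64 TPM (median 2.38) after treatment, so that all 7 treated libraries lay below all 5 IgG2a libraries, with a log2 fold change of -1.73. Cd300ld2, a receptor of the CD300 family of myeloid cells, was at 5.65, 1.4, 2.56, 7.16 and 40.9 TPM after IgG2a and at most 0.82 TPM after treatment (log2 fold change -2.54). Gsta3, a glutathione transferase, and Ces2b, a carboxylesterase of liver and intestine, changed by -2.10 and -1.77. Without tumor_369_a the means of Cd300ld2, Gsta3, Olfr1260, Olfr107 and Ces2b no longer reached 10 TPM and these genes were not tested.

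The falls also held genes at moderate level in the IgG2a cells. Ssbp2, a single-stranded DNA binding protein that works with LIM domain cofactors (chr13:91460283-91703429), stood at 128, 133, 110.1, 115 and 319 TPM after IgG2a and 11.3 to 109 TPM (median 25) after treatment. The highest treated library thus lay just under the lowest IgG2a library, and the log2 fold change was -2.16 ± 0.57 (SE; limma adjusted p = 0.0977). Ltbp1, which tethers latent TGF-beta to the matrix, gave 14.9, 16.7, 29.7, 25.2 and 38.2 TPM after IgG2a against 2.33 to 10.7 TPM (median 4.48) after treatment (log2 fold change -2.01). Tma16, a factor of ribosome assembly, changed by -2.07, Hddc3, a phosphohydrolase, by -1.22 and Ccdc34, a coiled-coil protein, by -1.16. All 5 were also called lower after TMM-type scaling and without tumor_369_a. Ltbp1 and Tma16 passed the filter only through the IgG2a group, where they are high, so their repeated calls are no support.

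Among called genes without overlap, predicted and clone-based features aside, the 12 greatest rises were led by Mrs2, the channel that carries magnesium into mitochondria (chr13:24987483-25020379). It stood at 36.5, 13.5, 1.04, 1.2 and 0.77 TPM after IgG2a and 48.01 to 123 TPM (median 63.5) after treatment. The treated libraries lay in a narrow band above all IgG2a libraries, which spread from under 1 to 36.5 TPM. The log2 fold change was 3.79 ± 0.72 (SE, limma adjusted p = 0.0947, exact permutation p = 0.00126, the smallest possible). The group also held Mrps34, a protein of the mitochondrial small ribosomal subunit (3.30), Rbfa, a maturation factor of that subunit (3.23), and Timm22, the pore for carrier proteins in the inner mitochondrial membrane (3.05). The list of mitochondrial import and structure as a whole had 6 of 35 called higher (17.1%, near the 16.8% of all genes), 1 after TMM-type scaling and 1 without tumor_369_a. Rbfa had 2 IgG2a libraries, tumor_78_a and tumor_79_a, at 41.2 and 36.5 TPM, close to the lowest treated value of 42.6 TPM, and the other 3 at 1.62 TPM or less.

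Tbxa2r, the thromboxane A2 receptor (chr10:81328731-81335172), gave 3.21, 13.4, 16.1, 0 and 0 TPM after IgG2a and 30 to 52.5 TPM (median 37.2) after treatment. Every treated library lay above every IgG2a library, where the highest value was 16.1 TPM, with a log2 fold change of 3.26 ± 0.73. Nup153, a basket protein of the nuclear pore, stood at 1.34, 5.76, 1.51, 0.63 and 0.12 TPM after IgG2a and 7.43 to 49.6 TPM (median 20.98) after treatment (log2 fold change 3.22 ± 0.68). Herpud2, a membrane protein of the endoplasmic reticulum (ER), Tmem9b, an endolysosomal membrane protein, and Prkag1, the gamma subunit of the energy sensor AMPK, had log2 fold changes of 3.17, 3.04 and 3.01. Trav13d-1, a variable segment of the T cell receptor alpha chain, changed by 3.44, but this segment has near-identical copies in the locus, so its own level is uncertain. The genes of this paragraph and of the one before were also called higher after TMM-type scaling and without tumor_369_a, but Tbxa2r, Nup153, Herpud2, Timm22 and Trav13d-1 had IgG2a means below 10 TPM and passed the filter only through the treated group, where they are high, so their repeated calls are no support. Tbxa2r, Nup153, Timm22, Tmem9b, Prkag1 and Trav13d-1 were below 1 TPM in both tumor_79_a and tumor_369_a, and without these libraries Tmem9b was no longer called (log2 fold change 0.83).

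**Figure D2:**
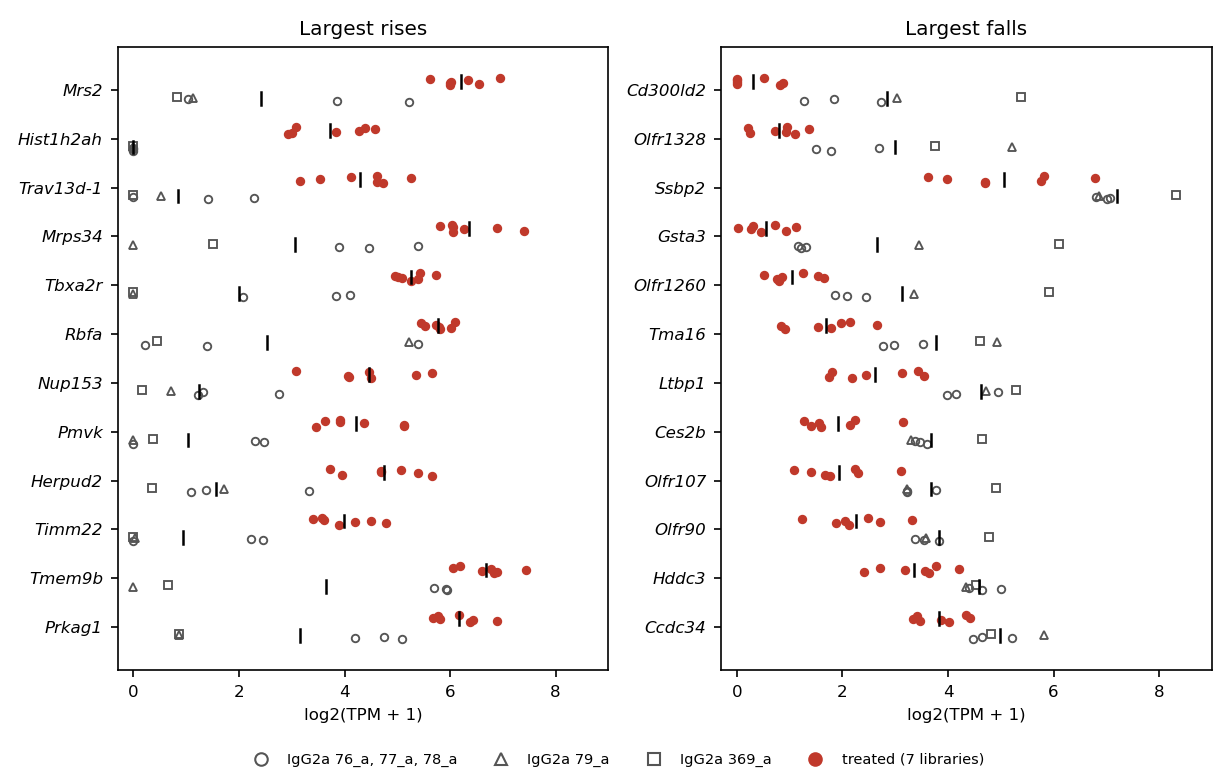
log2(TPM + 1) in each library of the 12 greatest rises (left) and 12 greatest falls (right) among called genes whose groups do not overlap, leaving out predicted and clone-based features; grey open marks are the 5 IgG2a libraries, with tumor_79_a and tumor_369_a by shape, red marks the 7 treated libraries and black ticks the group means. Mrs2 lies at 48.0 to 123 TPM in the treated libraries and at 0.77 to 36.5 TPM in the IgG2a libraries; Hist1h2ah is listed at 0 in all 5 IgG2a libraries.

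Among lists with 8 or more tested genes, histones had the highest median in TPM, after TMM-type scaling and without tumor_369_a. Replication-dependent histones, the core and linker histones made in S phase for new DNA, had 16 of 31 tested members called higher (51.6%, beside 16.8% of all genes), 0 lower and a median log2 fold change of 2.11, beside 0.62 over all genes tested. Of the 31, 20 had a mean above 10 TPM in both groups, with 10 called and a median of 1.76, the others, Hist1h2ah among them, passing through 1 group only, and with no filter 16 of 64 were called, with a median of 1.03. Genes of G2/M and mitosis had 20 of 48 called higher (41.7%), 0 lower and a median of 1.35, and 12 of the 35 with a mean above 10 TPM in both groups, with a median of 1.14. Genes of DNA replication and S phase had 17 of 41 called higher (41.5%), 0 lower and a median of 1.26, and 11 of 32, with a median of 1.12, under that filter. After TMM-type scaling 13, 8 and 2 were called higher, the last a share below the 6.1% of all genes, and the medians were 1.47, 0.83 and 0.83, against 0.05 over all genes. Without tumor_369_a the calls were 13 of 30, 11 of 48 and 5 of 41, the last near the 10.9% of all genes, and without tumor_369_a and tumor_79_a they were 6 of 30, 8 of 48 and 2 of 41, beside 817 of 7018 over all genes. The medians were then 0.85, 0.79 and 0.44, beside 0.52 over all genes, so the S phase list lay below the median gene in that setting. The lists describe these libraries, and no list was tested against other genes.

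The promoters of members that were called higher in those lists are shown because the histone and mitotic genes share short elements that the fold changes did not use. The sequences are from RefSeq (GRCm38.p6), 250 bases before to 50 after the annotated start, read 5′ to 3′ on the gene's strand, with each match to a motif or to its reverse complement in capitals. The motif of the factor NF-Y was searched as CCAAT. The sequence of a TATA box, bound by the general transcription machinery, was searched as TATAAA. The core of the cell cycle homology region, known from promoters of mitotic genes, was searched as TTTGAA. Both strands were searched, and matches may overlap.
Hist1h2ah (chr13:22035594-22035893, minus strand): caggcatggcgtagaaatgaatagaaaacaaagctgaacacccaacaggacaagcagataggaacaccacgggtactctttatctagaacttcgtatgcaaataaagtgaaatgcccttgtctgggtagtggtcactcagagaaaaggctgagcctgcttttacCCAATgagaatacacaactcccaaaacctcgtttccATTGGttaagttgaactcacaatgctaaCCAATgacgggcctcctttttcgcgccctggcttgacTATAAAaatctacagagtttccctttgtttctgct
Hist1h2ab (chr13:23750838-23751137, plus strand): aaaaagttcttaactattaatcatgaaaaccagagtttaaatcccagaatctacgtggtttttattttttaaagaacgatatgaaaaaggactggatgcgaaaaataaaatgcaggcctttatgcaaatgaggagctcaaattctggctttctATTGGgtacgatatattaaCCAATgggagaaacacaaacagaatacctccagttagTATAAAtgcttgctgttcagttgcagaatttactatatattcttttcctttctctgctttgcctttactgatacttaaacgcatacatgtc
Ube2c (chr2:164769679-164769978, plus strand): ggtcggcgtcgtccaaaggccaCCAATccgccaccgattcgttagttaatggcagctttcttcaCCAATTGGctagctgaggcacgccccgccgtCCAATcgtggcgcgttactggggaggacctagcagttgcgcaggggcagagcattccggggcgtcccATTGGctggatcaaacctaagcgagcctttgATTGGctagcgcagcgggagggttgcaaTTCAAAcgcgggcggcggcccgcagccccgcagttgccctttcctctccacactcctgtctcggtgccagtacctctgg
Smc2 (chr4:52438971-52439270, plus strand): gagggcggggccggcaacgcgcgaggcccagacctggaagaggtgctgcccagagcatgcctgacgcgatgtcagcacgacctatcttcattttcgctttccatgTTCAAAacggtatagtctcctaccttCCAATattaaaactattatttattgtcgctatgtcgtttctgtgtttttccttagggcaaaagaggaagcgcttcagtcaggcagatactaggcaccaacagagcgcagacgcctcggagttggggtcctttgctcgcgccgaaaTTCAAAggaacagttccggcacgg

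Promoters were found for 15 of the 16 histone genes called higher, 19 of the 20 G2/M genes and 16 of the 17 S phase genes. CCAAT was in 14 of 15 histone promoters (93.3%), 16 of 19 G2/M promoters (84.2%) and 11 of 16 S phase promoters (68.8%), beside 37.9% of all 27025 promoters of the table. TATAAA was in 9 of the 15 histone promoters (60%), 0 of the 19 G2/M promoters and 2 of the 16 S phase promoters (12.5%), beside 14.2% of all. TTTGAA was in 14 of 19 G2/M promoters (73.7%), 6 of 15 histone promoters (40%) and 2 of 16 S phase promoters (12.5%), beside 18.1% of all. Members that were not called had such letters as well, since 26 of 28 promoters of all tested histones held CCAAT and 27 of 41 of all tested G2/M genes held TTTGAA. Over the 5543 promoters of all genes tested, CCAAT was in 39%, TATAAA in 7.2% and TTTGAA in 12.3%. A match describes the letters only.

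Among the histones, Hist1h2ah was listed at 0 in all 5 IgG2a libraries and at 6.62 to 22.9 TPM (median 13.3) after treatment. Hist1h2ab stood at 41.1, 40.6, 83.1, 0 and 0 TPM after IgG2a and 62.1 to 245 TPM (median 134) after treatment, so that only tumor_78_a reached the lower treated libraries, with a log2 fold change of 3.61 ± 0.96. Hist1h3h gave 38.8, 0, 95.1, 1.44 and 0.41 TPM after IgG2a and 22.4 to 157 TPM (median 73.3) after treatment (log2 fold change 3.39). All 3 genes were also called higher after TMM-type scaling and without tumor_369_a. Hist1h2ah passed the filter only through the treated group, where it is high, so its repeated calls are no support. Members of this family have near-identical coding sequences, so reads may have been divided among copies, and their mRNA ends in a stem-loop and not in a poly(A) tail. How far the capture of such RNA differed between libraries was not tested.

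Of the mitotic genes, Ube2c, the ubiquitin conjugating enzyme of the anaphase promoting complex (chr2:164769898-164778822), stood at 73.9, 52.5, 35.95, 0 and 1.33 TPM after IgG2a and 47.7 to 560.3 TPM (median 156) after treatment. Only tumor_76_a and tumor_77_a exceeded the lowest treated library, and the log2 fold change was 3.42 ± 0.94 (SE, limma adjusted p = 0.0977). Smc2, a core subunit of condensin, did not overlap between groups, at 23.8, 8.74, 22.8, 0 and 2.31 TPM after IgG2a and 25.1 to 76.9 TPM (median 40.9) after treatment, with a log2 fold change of 2.48. Cdc25b, the phosphatase that opens mitosis by acting on Cdk1, had a log2 fold change of 2.94. The proliferation marker Mki67 and Cdk1 were called higher as well, at 1.78 and 2.47, and of these 5 mitotic genes Mki67 alone was not called after TMM-type scaling.

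The S phase calls were smaller. Slbp, which binds the histone mRNA stem-loop, gave 59.1, 37.5, 35.2, 3.07 and 16.5 TPM after IgG2a and 51.6 to 141 TPM (median 80.6) after treatment (log2 fold change 1.85). Rfc3 and Rfc4, subunits of the clamp loader that places PCNA on DNA, changed by 1.95 and 1.93. The 3 calls held without tumor_369_a, and Rfc3 was the only one of the 3 called after TMM-type scaling, but Rfc3 and Rfc4 passed the filter only through the treated group. Pcna itself was not called, at a log2 fold change of 1.01, and Mcm2 and Mcm5 of the replicative helicase stood at 0.04 and -0.04.

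Per-library medians show which libraries carry these differences. For each library, the genes of a list were centred on their mean over the 12 libraries and their median was taken. For the histones this score was -0.085, -0.217, 0.545, -2.026 and -2.964 after IgG2a and -0.082 to 1.881 after treatment, so tumor_79_a and tumor_369_a were far below the rest while the other 3 IgG2a libraries lay within or close to the treated range. For G2/M genes it was 0.234, -0.385, -0.44, -0.32 and -2.918 after IgG2a and -0.108 to 1.589 after treatment, where tumor_73_a was highest and tumor_73_b lowest. Over all genes tested, tumor_369_a had a score of -1.917, against -0.319 to 0.611 in the other 11 libraries.

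**Figure D3:**
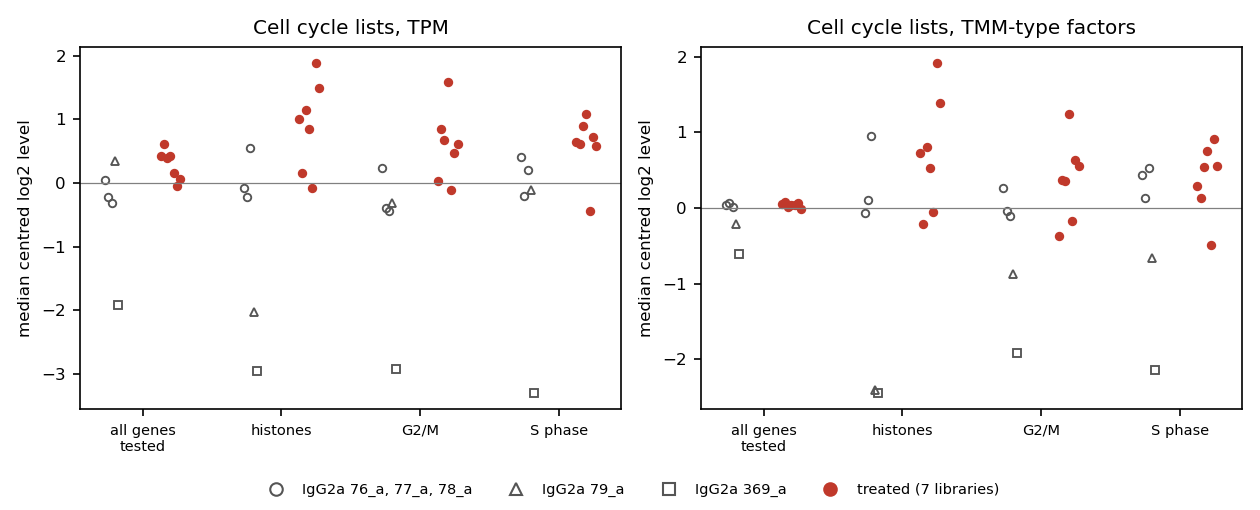
Median centred log2 level in each library of all genes tested, of replication-dependent histones and of G2/M and S phase genes, in TPM (left) and after TMM-type scaling (right); open grey marks are IgG2a and red marks treated libraries. IgG2a tumor_369_a lies lowest for every list in TPM (-1.917 for all genes and -2.964 for histones), and tumor_79_a lies low for the histones (-2.026).

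The cholesterol and mevalonate pathway, which turns acetyl-CoA into sterols and the lipid anchors of small GTPases, had 8 of 21 members called higher (16.8% over all genes), 0 lower and a median of 1.26. With a mean above 10 TPM in both groups 9 members were tested and 2 called, since others, Pmvk, Sc5d and Fdft1 among them, passed only through the treated group. Pmvk, the phosphomevalonate kinase (chr3:89454541-89469013), stood at 0, 4.59, 3.92, 0 and 0.29 TPM after IgG2a and 10.03 to 33.99 TPM (median 14.2) after treatment. Its groups did not overlap, and the log2 fold change was 3.19 ± 0.70 (SE, limma adjusted p = 0.0977). Sc5d, a desaturase of late sterol synthesis, and Fdft1, squalene synthase, changed by 1.99 and 1.80. After TMM-type scaling 2 members, Pmvk and Sc5d, were called higher and 2, Lss and Scap, lower, and without tumor_369_a 4 of 19 were called higher and 1 lower. The repeated calls of Pmvk and Sc5d are no support, since both passed the filter only through the group where they are high.

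Fatty acid oxidation and lipid handling genes had 7 of 20 called higher (35%, beside 16.8% of all genes), 0 lower and a median of 1.10, and 4 of the 15 with a mean above 10 TPM in both groups. They had 3 higher and 1 lower after TMM-type scaling (6.1% and 7.79% of all genes) and 3 of 21 higher without tumor_369_a (10.9% of all genes). Without tumor_369_a and tumor_79_a 2 of 20 were called, beside 817 of 7018 over all genes, and the median, 0.32, lay below the 0.52 of all genes, as did 0.39 against 0.47 with library weights. Lipa, the lysosomal acid lipase that frees cholesterol and fatty acids, stood at 0.9, 18.2, 6.67, 1.64 and 0.46 TPM after IgG2a and 10.3 to 41.6 TPM (median 27.6) after treatment (log2 fold change 2.58). Abcg1, a cholesterol exporter, and Dgat1, which makes triglyceride, changed by 2.10 and 1.93. These 3 genes were also called higher after TMM-type scaling and without tumor_369_a, though Lipa and Abcg1 passed the filter only through the treated group.

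Of 75 nuclear genes of oxidative phosphorylation, a pathway encoded in both the nuclear and the mitochondrial genome, 18 were called higher (24%, beside 16.8% of all genes) and 0 lower, with a median of 0.80. Of the 13 mitochondrially encoded genes 0 were called higher and 3 lower (23.1%, beside 4.87% of all genes), with a median of -1.21 and all 13 below 0. mt-Cytb, the cytochrome b of complex III, gave 811, 341, 352, 4375 and 3522 TPM after IgG2a and 171 to 1609.5 TPM (median 294) after treatment (log2 fold change -1.54). IgG2a tumor_79_a and tumor_369_a were far above the other 3 IgG2a libraries, which lay within the treated range, and mt-Nd1 and mt-Co1 (-1.30 and -1.27) followed the same libraries. Without tumor_369_a none of the 13 was called, with a median of -0.73, and without tumor_369_a and tumor_79_a the median was 0.10, so the negative values rested on these 2 IgG2a libraries. The difference between the lists was not tested. Of the nuclear genes, Ndufb11 of complex I did not overlap between groups, at 22.01, 17.8, 22.5, 13.3 and 1.45 TPM after IgG2a and 24.1 to 66.7 TPM (median 39.6) after treatment (log2 fold change 1.71). Nuclear calls numbered 0 after TMM-type scaling, 4 without tumor_369_a and 11 of 74 without tumor_369_a and tumor_79_a, beside 817 of 7018 over all genes there.

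**Figure D4:**
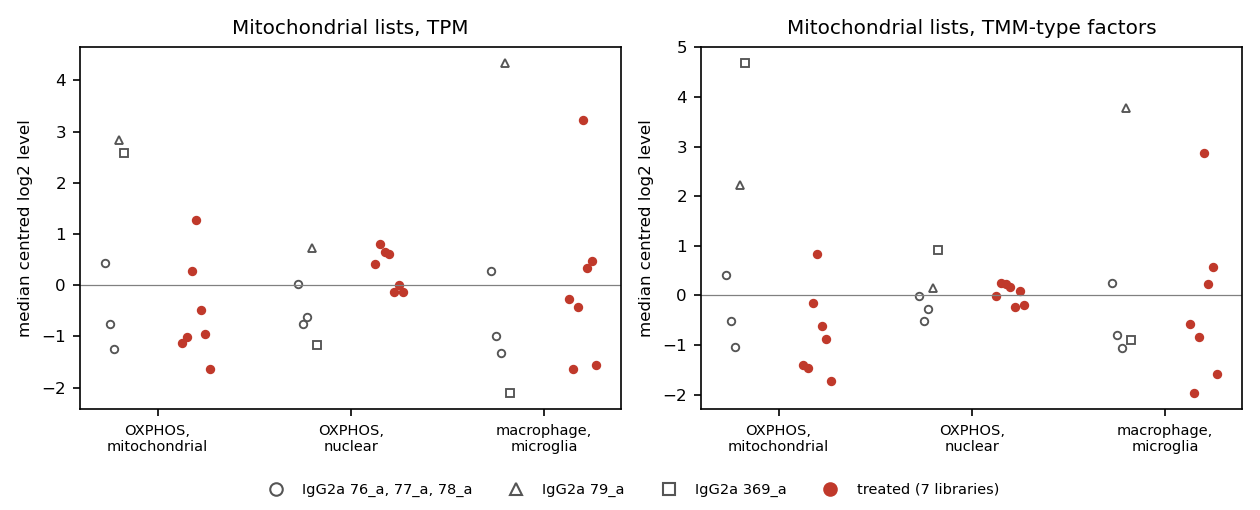
Median centred log2 level in each library of the mitochondrially encoded and the nuclear genes of oxidative phosphorylation (OXPHOS) and of the macrophage and microglia markers, in TPM (left) and after TMM-type scaling (right). The mitochondrially encoded genes are highest in IgG2a tumor_79_a (2.844 in TPM) and tumor_369_a (2.578), and the macrophage markers in IgG2a tumor_79_a (4.329) and treated tumor_73_a (3.225).

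Of the remaining metabolic lists, polyamine and glutathione genes had 7 of 30 called higher (23.3%, beside 16.8% of all genes) and 0 lower, with a median of 0.96. Odc1, ornithine decarboxylase, the first enzyme of polyamine synthesis (chr12:17544794-17551505), stood at 46.05, 128, 24.96, 25.9 and 42.4 TPM after IgG2a and 119 to 399.8 TPM (median 195) after treatment. Only tumor_77_a, at 127.7 TPM, exceeded the lowest treated library, and the log2 fold change of 2.24 ± 0.48 (SE, limma adjusted p = 0.0977) was 1.55 after TMM-type scaling and 2.23 without tumor_369_a, called in both. It was the only member of its list called in either setting. Dld, the E3 subunit shared by the pyruvate and oxoglutarate dehydrogenases, led the TCA cycle genes (5 of 24 higher, 20.8%, median 0.59) with a log2 fold change of 2.09. Glycolysis genes had 0 of 21 called higher and 1 lower, Eno2, the neuronal enolase, at 4.37, 2.11, 4.39, 3.76 and 80.6 TPM after IgG2a and 0 to 2.38 TPM (median 0.41) after treatment (log2 fold change -2.37), so its mean rested on tumor_369_a. Hypoxia genes had 3 of 15 called higher (20%), nucleotide and one-carbon genes 3 of 27 (11.1%, below the share of all genes) and amino acid transport and mTORC1 genes 5 of 26 (19.2%, near it), with 0 lower in each. Eif4ebp1, the translation repressor that mTORC1 inactivates, changed by 1.98, called also after TMM-type scaling and without tumor_369_a. Dld was called in both settings too, but passed the filter only through the treated group.

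None of the 82 cytosolic ribosomal proteins was called in either direction, with a median of 0.33, below that of all genes, and of 0.39 without tumor_369_a, near the 0.36 of all genes there. Rpl13, a protein of the large subunit, had a log2 fold change of 0.93. After leaving out tumor_369_a and tumor_79_a 11 of 82 were called higher, beside 817 of 7018 over all genes, and their median was 0.79. Mitochondrial ribosomal proteins had 14 of 67 called higher, 1 lower (20.9% and 1.49%, beside 16.8% and 4.87% of all genes) and a median of 0.995. Mrps34 stood at 21.1, 13.8, 41.2, 0 and 1.84 TPM after IgG2a and 54.9 to 168 TPM (median 65.7) after treatment, Mrpl44 changed by 2.45, and Mrpl48 was the member called lower (-1.27). Without tumor_369_a 13 of 71 were called higher and 1 lower, with a median of 0.39 beside 0.36 over all genes, and without tumor_369_a and tumor_79_a 6 of 65, under the share of all genes, with a median of 0.65, below that of the cytosolic proteins. Mrps34, Mrpl44 and Mrpl48 kept their calls in the TMM-type and the tumor_369_a settings, Mrpl44 having passed the filter only through the treated group.

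Translation factors had 5 of 41 called higher (12.2%, against 16.8% of all genes) and 0 lower, with a median of 0.34. Eif4g3, a scaffold of the cap-binding complex, did not overlap between groups, at 8.44, 5.14, 7.08, 0.59 and 0.47 TPM after IgG2a and 10.7 to 69.4 TPM (median 41.8) after treatment (log2 fold change 2.92 ± 0.70). Eif3c of initiation factor 3 changed by 1.87. Aminoacyl-tRNA synthetases had 0 of 20 called in either direction, with Gars and Vars at 1.08 and -0.48, and ribosome biogenesis genes had 3 of 30 called higher (10%), led by Polr1c (1.52). Eif4g3 and Eif3c were called also after TMM-type scaling and without tumor_369_a, and Polr1c in neither, and Eif4g3 passed the filter only through the treated group.

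Chaperones and unfolded protein response genes had 5 of 43 called higher (11.6%, against 16.8% of all genes) and 0 lower, with a median of 0.67. Manf, an ER stress responsive secreted factor, did not overlap between groups, at 53.1, 30.6, 83.7, 38.9 and 4.32 TPM after IgG2a and 97.5 to 282 TPM (median 146) after treatment (log2 fold change 2.16 ± 0.59, limma adjusted p = 0.0977), and was called in both other settings. ER translocation and vesicle transport genes had 6 of 47 called higher (12.8%), proteasome subunits 6 of 39 (15.4%) and lysosome and autophagy genes 8 of 51 (15.7%), with 0 lower in each and shares near or under that of all genes. Arf5, a small GTPase of the Golgi, changed by 2.32, Psmf1, a proteasome inhibitor, by 2.29, and Wipi2, which acts at the forming autophagosome, by 1.88. Sec23b, a COPII coat protein, did not overlap between groups (1.47). Arf5, Psmf1 and Wipi2 were called also after TMM-type scaling and without tumor_369_a, and Sec23b in the latter only, Psmf1 having passed the filter through the treated group alone.

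Among nuclear genes, the spliceosome and hnRNP list had 16 of 65 called higher (24.6%, beside 16.8% of all genes) and 0 lower, with a median of 0.53, and 4 higher and 1 lower without tumor_369_a. Hnrnpll, a splicing regulator of the Ptprc (CD45) transcript in T cells, changed by 2.35. Nuclear pore and transport genes had 7 of 33 higher (21.2%) and 1 lower, Nup54 (-1.32). Tpr, like Nup153 a basket protein of the pore, stood at 65.9, 36.5, 63.99, 35.7 and 32.7 TPM after IgG2a and 77.8 to 237 TPM (median 106) after treatment without overlap (log2 fold change 1.35). Chromatin regulators had 11 of 56 called higher (19.6%, near the 16.8% of all genes) and 1 after TMM-type scaling, with Chd1, a remodeler of transcribed genes, at 2.90 and Smarcb1 of the SWI/SNF complex at 2.22. DNA damage genes had 5 of 24 higher (20.8%) and 1 lower, Nbn (-2.05), a partner of Mre11a, and none was called higher without tumor_369_a. Hnrnpll, Chd1 and Nbn kept their calls after TMM-type scaling and without tumor_369_a, Tpr and Smarcb1 only in the latter and Nup54 only in the former. Hnrnpll and Chd1 passed the filter only through the treated group, and Nbn and Nup54 only through the IgG2a group. The repeated calls of these genes are therefore no support.

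Actin and motility genes had 5 of 54 members higher without overlap (1.77% over all genes), with 13 called higher (24.1%, beside 16.8% of all genes), 0 lower and a median of 0.74. Coro1a, a coronin that binds actin in leukocytes and is among the more abundant mRNAs here, stood at 801, 798, 886, 362 and 499 TPM after IgG2a and 1119.6 to 1748 TPM (median 1618) after treatment. The lowest treated library, at 1119.6 TPM, lay above the highest IgG2a library, at 886 TPM, with a log2 fold change of 1.23 ± 0.31 (SE, limma adjusted p = 0.0977), and 0.53, no longer called, after TMM-type scaling. Rhoh, a small GTPase-like protein, itself GTPase-deficient, needed for T cell receptor signalling, gave 46.3, 30.6, 28.6, 12.1 and 8.92 TPM after IgG2a and 66.4 to 136 TPM (median 68.2) after treatment (log2 fold change 1.94). Myh9, the heavy chain of non-muscle myosin, gave 119.8, 126, 85.1, 147 and 14.96 and 206 to 418 TPM (median 349.9) (log2 fold change 1.91), and Rhoh and Myh9 were called also after TMM-type scaling and without tumor_369_a. After TMM-type scaling 3 of the 54 were called, and without tumor_369_a 5 of 53.

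Integrins and adhesion molecules had 6 of 21 called higher (28.6%, beside 16.8% of all genes), and 2 without tumor_369_a. Itgb7, the partner of the alpha 4 and alpha E integrins, stood at 544, 427, 634, 175 and 263 TPM after IgG2a and 550.2 to 1085 TPM (median 886) after treatment (log2 fold change 1.13). Fermt3, the integrin activator kindlin-3, changed by 1.43, and none of the 6 was called after TMM-type scaling. Chemokines and their receptors had 1 of 15 called higher, Cxcr3 (1.82), with a median of 0.01, and after TMM-type scaling 0 were called higher and 2 lower, Ccl3 and Ccl4. Itgb7 was called without tumor_369_a, and Fermt3 and Cxcr3 were not.

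Treg identity genes had 3 of 23 called higher (13%, near the 16.8% of all genes), 0 lower and a median of 0.36, and of 0.54 without tumor_369_a. Entpd1, which encodes CD39, the ectoenzyme that starts the conversion of ATP to adenosine (chr19:40612366-40741602), stood at 70.1, 64.7, 62.8, 0.45 and 3.94 TPM after IgG2a and 94.7 to 174 TPM (median 155) after treatment. All 7 treated libraries were above the highest IgG2a library, 3 IgG2a libraries were at 62.8 to 70.1 TPM, and tumor_79_a and tumor_369_a were at 0.45 and 3.94 TPM. The log2 fold change was 2.93 ± 0.80 (SE, limma adjusted p = 0.0977) and remained called after TMM-type scaling (2.19) and without tumor_369_a (2.45). The Entpd1 log2 fold change was 2.01 without tumor_79_a and 1.07, still called, without both libraries, so its size rested on them. Ikzf4 (Eos), a Foxp3 partner, and Socs2, a STAT5 target, changed by 1.62 and 1.72 but were not called in either setting. Suppressive mediators had 3 of 23 called higher (13%), Entpd1 with the adenosine receptor gene Adora2a (1.82) and Vsir (1.09), which encodes VISTA. Adora2a and Vsir were called neither after TMM-type scaling nor without tumor_369_a, and after TMM-type scaling the list had 1 called higher and 1 lower.

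Effector Treg regulators had 5 of 22 called higher (22.7%, beside 16.8% of all genes), 0 lower and a median of 0.83. Gata3, a transcription factor of tissue and activated Treg cells, did not overlap between groups, at 35.2, 23.04, 48.7, 20.6 and 45.1 TPM after IgG2a and 54.3 to 142 TPM (median 80.04) after treatment (log2 fold change 1.35, 1.46 without tumor_369_a and 0.65 after TMM-type scaling, there not called). Klrg1, an inhibitory receptor of terminally differentiated Treg cells, gave 34.3, 13.3, 22.8, 43.9 and 6.84 TPM after IgG2a and 43.8 to 140.1 TPM (median 66.9) after treatment, so that tumor_79_a alone reached the lowest treated library (log2 fold change 1.83). Ikzf1 (Ikaros) changed by 1.98. Klrg1 and Ikzf1 were called in both other settings. Genes of resting and lymphoid homing cells also had 5 of 18 called higher (27.8%), with a median of 0.88: Txk, a Tec family kinase, did not overlap (2.72, 7.56, 2.77, 0.06 and 0.18 TPM after IgG2a and 8.98 to 17.1 TPM (median 13.7) after treatment, log2 fold change 2.43), and S1pr1, the receptor for exit from tissue, changed by 2.12. After TMM-type scaling the medians of the effector and resting lists were 0.14 and 0.36. Txk and S1pr1 were called in both other settings as well, but these and Ikzf1 passed the filter only through the treated group.

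T cell receptor signalling had 10 of 37 called higher (27%, beside 16.8% of all genes), 0 lower and a median of 0.76, with 7 of 37 called without tumor_369_a and 2 after TMM-type scaling. Nfatc3, a calcium-regulated transcription factor, stood at 48.03, 46.8, 22.9, 10.4 and 4.02 TPM after IgG2a and 53.2 to 132 TPM (median 85.9) after treatment without overlap (log2 fold change 2.10 ± 0.59). Lat, the adaptor of the receptor's proximal complex, and Cd5 changed by 1.22 and 1.07. The IL-2 receptor and STAT5 list had 4 of 18 called higher (22.2%), Jak1 among them (1.07), and immediate early genes 4 of 21 (19%), led by Ppp1r15a (2.43). Nfatc3 and also Ppp1r15a, the latter a gene that passed the filter only through the treated group, were called in both settings, Lat and Jak1 without tumor_369_a only and Cd5 in neither.

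TNF receptor and NF-kB signalling, the pathway downstream of GITR, had 3 of 28 called higher (10.7%, against 16.8% of all genes), 0 lower and a median of 0.31, below that of all genes, but 0.48 without tumor_369_a, above the 0.36 of all genes. The called members were Nfkbie, an NF-kB inhibitor (1.39), Bcl3, a coactivator of NF-kB p50 and p52 (1.64), and Chuk, the kinase IKK alpha (1.95). Of these Nfkbie was called without tumor_369_a and none after TMM-type scaling. Tnfrsf18 stood at 295, 244, 187, 348 and 145 TPM after IgG2a and 186 to 515 TPM (median 450.2) after treatment, with a log2 fold change of 0.69 in TPM and -0.01 after TMM-type scaling, and Pdcd1 was at -0.12. Apoptosis regulators had 5 of 21 called higher (23.8%) and 0 after TMM-type scaling, with Xiap (1.72), an inhibitor of caspases, and Bak1 (1.86), which opens the outer mitochondrial membrane, among them. Xiap and Bak1, which passed the filter only through the treated group, were called without tumor_369_a.

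Interferon-stimulated genes had 10 of 56 called higher (17.9%, near the 16.8% of all genes), 0 lower and a median of 0.50, led by the GTPase genes Ifi47 (1.98) and Iigp1 (1.93), with 11 of 55 called without tumor_369_a, where 10.9% of all genes were, and 1 after TMM-type scaling. MHC class I presentation had 4 of 23 higher (17.4%, near the 16.8% of all genes), 0 after TMM-type scaling and 2 without tumor_369_a, with Tap2, a subunit of the peptide transporter, at 117, 193, 177, 79.5 and 88.9 TPM after IgG2a and 193 to 333 TPM (median 228) after treatment without overlap (log2 fold change 1.01, called in neither setting). Cytotoxic granule genes had 0 of 13 called in either direction and 2 higher without tumor_369_a, Ctsw and Lamp1, and Gzmb and Srgn were at 0.40 and 0.47 in TPM but -0.30 and -0.23 after TMM-type scaling. S100, annexin and galectin genes had 2 of 21 higher, led by Lgals8 (2.67), and the Ly6 and Gimap families had 0 of 3 and 0 of 8. Ly6a, Ly6e, Gimap1 and Gimap3 were at -0.39, 0.45, 0.34 and 0.74. Ifi47 and Lgals8 were called in both settings and Iigp1 without tumor_369_a only, Lgals8 having passed the filter through the treated group alone.

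Other cell types were represented by few tested markers. T cell markers had 2 of 12 called higher, Cd5 and Trbc1 (1.57), and a median of 0.61. Igkc, the kappa light chain constant region, was called higher among 2 tested B cell markers, at 9.09, 0.64, 5.08, 0 and 0.93 TPM after IgG2a and 5.74 to 45.7 TPM (median 24.7) after treatment (log2 fold change 2.97, called in both other settings but past the filter only through the treated group), while the summed B cell list ran from 53.6 to 438 TPM after IgG2a and from 153 to 388 TPM after treatment. The centred median of the tested B cell markers was -1.672 to -0.236 after IgG2a and -0.433 to 1.626 after treatment, and without tumor_369_a both tested markers, Igkc and Ighm, were called higher. The part of B cell RNA in the other results was not tested. Macrophage and microglia markers had 0 of 14 called and a median of 0.03, and CD8 T cell, NK cell, dendritic cell, neutrophil and neuron and glia markers 0 of 1, 2, 4, 1 and 5. Tumor and stroma markers had 1 of 6 called, Cd44 (1.29), which activated T cells also carry and which was not called after TMM-type scaling (0.61) or without tumor_369_a (0.89), and erythroid and platelet markers 0 of 3, with a median of -1.51 and a summed level of 2371 TPM in tumor_79_a. Housekeeping genes had 1 of 14 called, Tbp (1.97), and a median of 0.60, near that of all genes.

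**Figure D5:**
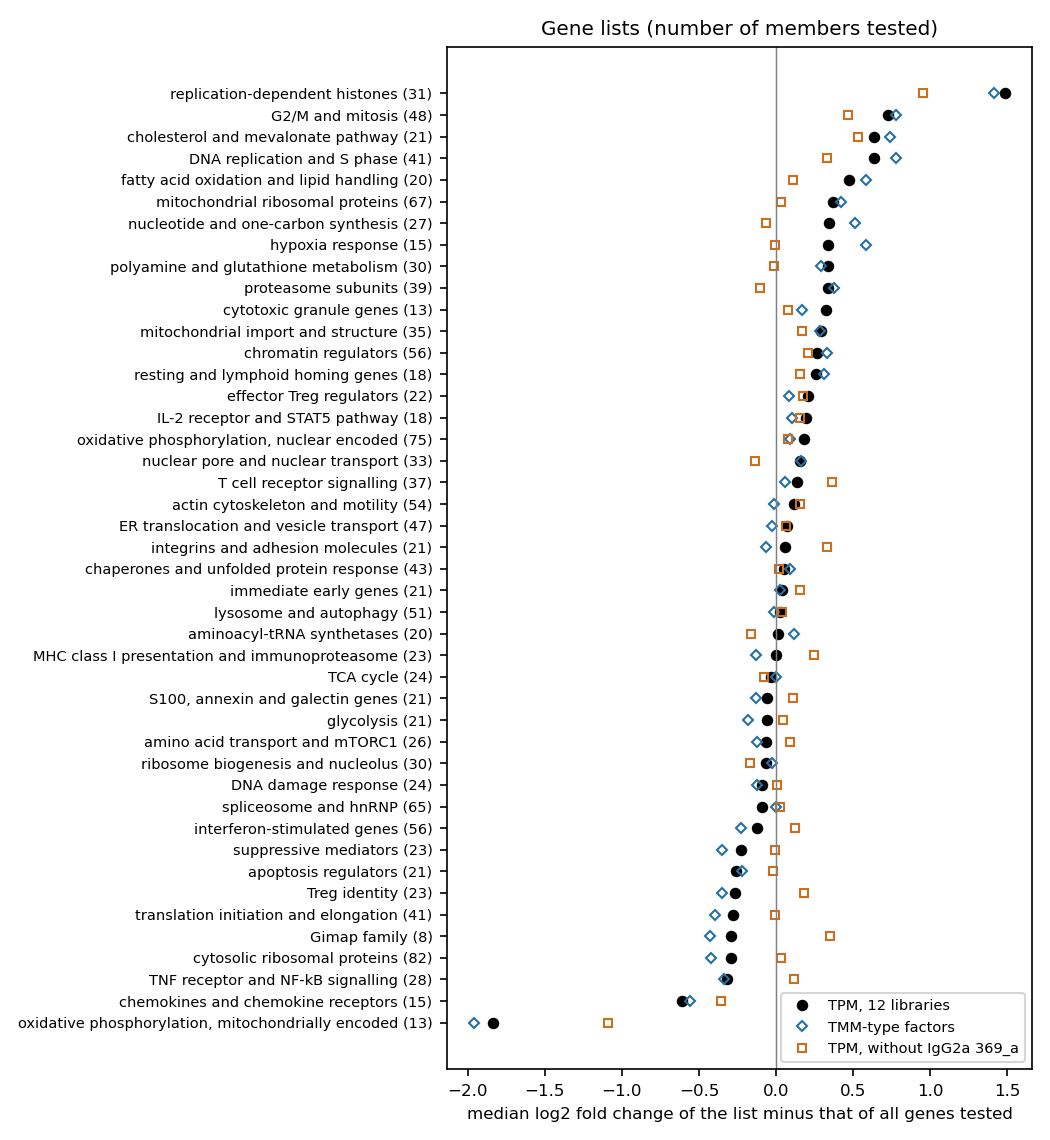
Median log2 fold change of each list with 8 or more tested members minus the median of all genes tested, in TPM over 12 libraries (filled), after TMM-type scaling (diamonds) and without IgG2a tumor_369_a (squares); the number of tested members is in brackets. Replication-dependent histones lie furthest to the right in all 3 settings, and the mitochondrially encoded genes furthest to the left.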

How the data were processed

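RNA of sorted GBM Treg cells was made into Smart-Seq2 libraries, sequenced on a NextSeq500, aligned to mm10 with TopHat2 and quantified with RSEM by the authors; versions are not given in the sources used here. The deposited table holds TPM plus 1, another unit than plain TPM, so 1 was taken off each value. Whole reads and depth cannot be taken from TPM, and the number of libraries limits the precision. In that table, 1 column of values that matches no sample used here was left out, and the sample sheet was not used. Symbols in which dots had replaced hyphens, or X preceded a digit, were restored by unique match for 4723 features, and gene types and positions were taken from GENCODE M21 (GRCm38).

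Genes with a mean above 10 TPM in either group were tested with limma 3.58.1 in R 4.3.3 on log2(TPM + 1), treated against IgG2a with no covariate, and adjusted by Benjamini-Hochberg over all genes tested. A gene was called at an unadjusted limma p under 0.05 and a change over 2-fold. Named genes were the 12 greatest non-overlapping calls per direction, leaving out predicted, clone-based and numbered cDNA names and the Th1 and checkpoint lists, up to 3 called members per list and direction, 2 members of a list with none called, and sort markers and antibody targets. Other list members and all non-coding features named were chosen after their values were seen. The gene lists and the comparison itself were chosen with earlier results of these data known. Replicates are libraries from separate mice per the design text.

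Alternatives were pseudocounts of 0.1 and 10, no filter or a filter in both groups, TMM-type factors (30% trim of ratios, 5% of levels), quantile normalization, rescaling without the 10 most abundant features, the number of detected genes as a covariate, library weights, an ordinary linear model, averaging of libraries that share a label number, and leaving out each library. The fit was tested on simulated data. Promoter sequences were from RefSeq, and older symbols were matched through its synonyms. A few named genes are not reported here.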

Additional observations from a re-analysis of the deposited data

Results flagged for a closer look

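Of 327 sets of library values tested, each the log2(TPM + 1) of a named gene in a group, 29 had 1 library farther from the rest than Dixon's 95% critical value allows. Chance gives about 1 in 20. The number in brackets is the gap to the nearest library over the range of the group. IgG2a tumor_369_a was that library for 22 of them: Arf5 (0.856), Bcl3 (0.718), Cct4 (0.711), Ces2b (0.779), Cxcr3 (0.752), Dgat1 (0.743), Eif3c (0.73), Eif4ebp2 (0.732), Eno2 (0.832), Fermt3 (0.766), Gars (0.799), Ifi47 (0.799), Ikzf1 (0.735), Ikzf4 (0.908), Myh9 (0.758), Ndufb11 (0.779), Paics (0.821), Psmb4 (0.788), Ssbp2 (0.826), Trbc1 (0.73), Trp53 (0.872) and Wipi2 (0.785). Among the treated libraries it was tumor_73_a for C1qb (0.62), Fcer1g (0.572) and Txk (0.605), tumor_73_b for Cox5b (0.609), Gzmb (0.584) and Paics (0.594), and tumor_74_a for Jak1 (0.587).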

How the results depend on the processing

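The count of called genes was 970 with a pseudocount of 10, 935 with the filter in both groups, 1090 after TMM-type scaling and 1123 after quantile normalization, against 1700. It ran from 1133 (without tumor_369_a) to 2014 (without tumor_79_a) over the libraries left out. The share of called genes that were higher was 74% with a pseudocount of 10, 68.1% with no filter, 43.9% after TMM-type scaling, 46.4% after quantile normalization, 65.5% without the 10 most abundant features, 68.9% with library weights, 71% in an ordinary linear model, 70.7% with averaged libraries and 72.6% to 80.8% with 1 library left out. Genes whose groups did not overlap numbered 260 with no filter, 90 with the filter in both groups, 63 after TMM-type scaling, 107 after quantile normalization, 114 without the 10 most abundant features, 541 with averaged libraries, where fewer samples remain, and 186 to 508 with 1 library left out (highest without tumor_73_b). Non-coding genes and pseudogenes differed from protein coding genes by -1.76 in median log2 fold change in the main fit and by -0.12 with no filter. Their median and that of protein coding genes were -0.726 and 0.411 without tumor_369_a, and -0.405 and 0.525 with library weights. The size of the difference thus rested in part on tumor_369_a. With 2 settings chosen after seeing the data, TMM-type scaling without tumor_369_a gave 800 calls, 42.8% higher and 100 without overlap, and leaving out tumor_79_a and tumor_369_a gave 1125, 72.6% and 551. The cause was not tested.

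Of 161 named genes with a fit, 133 were called, and 43 of these kept the call in every alternative in which they were tested, those chosen after seeing the data aside. Log2 fold changes that turned sign were all of genes that were not called. With a pseudocount of 10 they were Tyrobp -0.32 and C1qb -0.03. After TMM-type scaling they were Gzmb -0.30, Srgn -0.23, Ly6e -0.25, Gimap1 -0.36, Fcer1g -0.12, Apoe -0.45, C1qb -0.07, Cd74 -0.31, Il2ra -0.46, Cd4 -0.43, Cd3e -0.07 and Tnfrsf18 -0.01. After quantile normalization they were Fcer1g -0.29 and C1qb -0.22, and with the covariate Aldoc 0.03. With library weights they were Ly6a 0.01, Gimap1 -0.20, Gars -0.08, Aldoc 0.70, Hba-a2 0.40, Hbb-bs 0.40 and Pdcd1 0.13. With 1 library left out, the ranges were -0.41 to 1.87 for Tyrobp, -0.42 to 1.46 for Apoe, -0.30 to 1.98 for C1qb, -0.13 to 0.71 for Gimap1, -1.29 to 0.14 for H2-Ab1, -0.62 to 0.53 for Aldoc, -2.44 to 0.00 for Hbb-bs, -0.03 to 1.51 for Gars, -0.38 to 1.80 for Fcer1g and -0.29 to 0.14 for Pdcd1. No paired analysis was possible because treated and IgG2a tumor libraries share no label number. Depth is unknown, so how far it limits low genes cannot be given.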
